A study of Mus musculus with 8 samples.

Results

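The genes described here are the cytochrome P450 genes of families Cyp1 to Cyp4, the families that hold most of the enzymes acting on drugs and other foreign chemicals. They were chosen by name from the array's probe annotation, as symbols in which Cyp1, Cyp2, Cyp3 or Cyp4 is followed directly by a letter and a number. Cyp4f39 and names ending in -ps (pseudogenes) were left out, and a probe set listing several symbols counted only if all of them fitted. This gave 74 of the 32750 annotated probe sets, called rows below, with 74 gene symbols. Of these rows, 70 carried 1 symbol and 4 were shared by near-identical genes (Cyp4a10 with Cyp4a31, Cyp2a5 with Cyp2a4, and 2 rows for Cyp3a41a with Cyp3a41b), for which the genes of a row cannot be told apart.

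RNA was taken from the forepaws of 8 mice (strain C57Bl/6, age 8 weeks) and measured on 1 Affymetrix array each. The wild-type group (WT, Krt16 WT) held 2 males and 2 females with normal skin, and the Krt16 null group held 2 males and 2 females whose paw skin was labelled as lesional. In the null allele, present in all cells of the animal, bacterial LacZ takes the place of the coding part of Krt16, which encodes a keratin of palm, sole and stressed epidermis. No drug or other chemical was given. The WT mice were littermates of the null mice. Since lesions came only with the null genotype, the effects of the lesion and of the genotype cannot be told apart here.

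P450 enzymes are haem proteins of the endoplasmic reticulum that insert an oxygen atom into their substrate with electrons passed on by P450 reductase. Enzymes of families Cyp1 to Cyp3 oxidise drugs, plant compounds and combustion products, and many are induced through the aryl hydrocarbon receptor (AHR) or the nuclear receptors PXR and CAR, mostly in liver. Several members act mainly on the body's own lipids, among them enzymes of Cyp2j, the keratinocyte epoxygenase Cyp2b19 and the fatty acid hydroxylases of Cyp4.

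The sequences just upstream of 6 of these genes show what the members share and where they differ. They are the 250 bases before the gene start in RefSeq (build GRCm38.p6), printed 5′ to 3′ along the gene, with matches to the searched motifs in capitals. Cyp2f2 (chr7:27119705-27119954, plus strand) and Cyp2b19 (chr7:26756892-26757141, plus strand) are shown as the largest fall and as the P450 of keratinocytes. The neighbouring genes Cyp4f16 (chr17:32536307-32536556, plus strand) and Cyp4f37 (chr17:32621069-32621318, plus strand) are the only rows called higher. Cyp1a1 (chr9:57697363-57697612, plus strand) and Cyp1b1 (chr17:79715062-79715311, minus strand) are textbook AHR targets.
Cyp2f2: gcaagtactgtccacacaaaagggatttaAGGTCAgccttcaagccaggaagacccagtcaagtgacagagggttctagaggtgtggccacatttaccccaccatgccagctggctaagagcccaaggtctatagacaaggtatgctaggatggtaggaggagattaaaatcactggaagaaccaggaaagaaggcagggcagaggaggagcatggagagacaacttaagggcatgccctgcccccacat
Cyp2b19: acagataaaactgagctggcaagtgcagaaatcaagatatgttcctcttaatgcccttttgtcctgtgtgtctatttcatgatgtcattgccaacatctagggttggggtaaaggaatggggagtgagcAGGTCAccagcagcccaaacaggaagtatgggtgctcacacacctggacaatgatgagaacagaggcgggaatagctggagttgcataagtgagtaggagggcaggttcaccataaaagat
Cyp4f16: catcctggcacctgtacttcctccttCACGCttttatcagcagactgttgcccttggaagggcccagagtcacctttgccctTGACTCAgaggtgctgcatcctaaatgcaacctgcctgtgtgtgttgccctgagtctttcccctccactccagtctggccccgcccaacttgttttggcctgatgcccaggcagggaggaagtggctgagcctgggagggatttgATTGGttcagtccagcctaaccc
Cyp4f37: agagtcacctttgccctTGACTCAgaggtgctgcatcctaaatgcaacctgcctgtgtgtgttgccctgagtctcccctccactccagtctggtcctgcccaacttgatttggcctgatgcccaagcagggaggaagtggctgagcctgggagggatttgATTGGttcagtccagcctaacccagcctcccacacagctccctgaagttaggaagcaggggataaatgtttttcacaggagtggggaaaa
Cyp1a1: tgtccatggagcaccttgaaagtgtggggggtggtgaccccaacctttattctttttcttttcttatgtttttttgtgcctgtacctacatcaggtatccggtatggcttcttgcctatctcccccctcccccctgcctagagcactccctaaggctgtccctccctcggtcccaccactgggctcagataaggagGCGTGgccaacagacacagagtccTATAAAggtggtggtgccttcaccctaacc
Cyp1b1: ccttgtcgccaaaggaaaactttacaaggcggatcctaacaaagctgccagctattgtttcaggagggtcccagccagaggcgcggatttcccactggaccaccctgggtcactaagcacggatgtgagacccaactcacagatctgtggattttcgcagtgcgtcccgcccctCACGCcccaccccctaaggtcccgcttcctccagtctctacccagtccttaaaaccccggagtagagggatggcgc

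In these sequences the capitals mark motifs found on either strand, so a motif on the far strand appears as its reverse complement. The core bound by AHR was searched as GCGTG and the motif of AP-1, a stress-induced factor, as TGACTCA. The core shared by many nuclear receptors was searched as AGGTCA. The general promoter elements were the TATA box, searched as TATAAA, and the box named for its letters CCAAT. The NRF2 core TGACNNNGC was searched too and is in none of the 6. A TGACTCA followed by GC would count for both AP-1 and NRF2, and the reverse of AGGTCA can overlap TGACNNNGC. Positions are those of the first base counted back from the gene start. AGGTCA lies at -221 in Cyp2f2 and at -121 in Cyp2b19. Cyp1a1 holds the AHR core at -54 and TATAAA at -30, and Cyp1b1 holds the AHR core at -76. The AHR core also lies at -224 in Cyp4f16. TGACTCA lies at -168 in Cyp4f16 and at -233 in Cyp4f37, and the longest run of identical bases in these 2 promoters, 74 bases, holds it.

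A promoter was held for 59 of the 74 symbols, and the shares were set beside those over the promoters of all 27025 genes in the table. The AHR core was in 10 of the 59 (16.9%) and in 30.9% of all promoters. TGACTCA was in 3 of 59 (5.08%, Cyp3a13, Cyp4f16 and Cyp4f37) against 5.16% of all, and TGACNNNGC in 2 of 59 (3.39%) against 11.5%. AGGTCA was in 14 of 59 (23.7%) against 15.8%, CCAAT in 24 of 59 (40.7%) against 37.5%, and TATAAA in 24 of 59 (40.7%) against 14.3%. Among the 14 promoters of rows called lower, 4 held the AHR core, 4 held AGGTCA and 0 held TGACTCA. These matches describe the letters of the window only.

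The comparison of null with WT asks which P450 genes differ in amount in the lesions. Cyp2f2, Cyp2b19, Cyp4b1 and the Cyp2j genes Cyp2j6, Cyp2j8, Cyp2j9 and Cyp2j12 were lower in null lesions. The change was 3.07-fold for Cyp2f2 and 1.40-fold to 1.78-fold for the others. Only the Cyp4f rows Cyp4f16 and Cyp4f37 were higher, by 0.23 and 0.22 on the log2 scale. Levels are log2 RMA signals, with mean ± SD over the 4 mice of a genotype, and differences are null minus WT. A row was called where limma's test of null minus WT, with sex in the model, gave a Benjamini-Hochberg adjusted p under 0.05 over all 32750 rows. Of the 74 rows 16 were called (21.6%), against 12.7% of all rows. Of the P450 rows 14 were called lower (18.9%, against 5.74% of all rows) and 2 higher (2.7%, against 6.91%). The median difference was -0.03 over the 74 rows and 0.01 over all rows.

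The WT and null arrays did not overlap in 22 P450 rows (29.7%), against 18.7% of all rows. In 18 of them WT was higher (8.6% of all rows were so) and in 4 null was higher (10.1% of all rows). Of the 16 called rows, which were picked by a test on these same arrays, Cyp1a1 alone overlapped. Cyp2f2 was the only called row whose difference reached 2-fold. All 14 rows called lower had a negative difference in males and in females. The calls were made on these same arrays, so the shared sign is no separate support. In males only 8 P450 rows were called lower, and in females only 4.

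**Figure D1:**
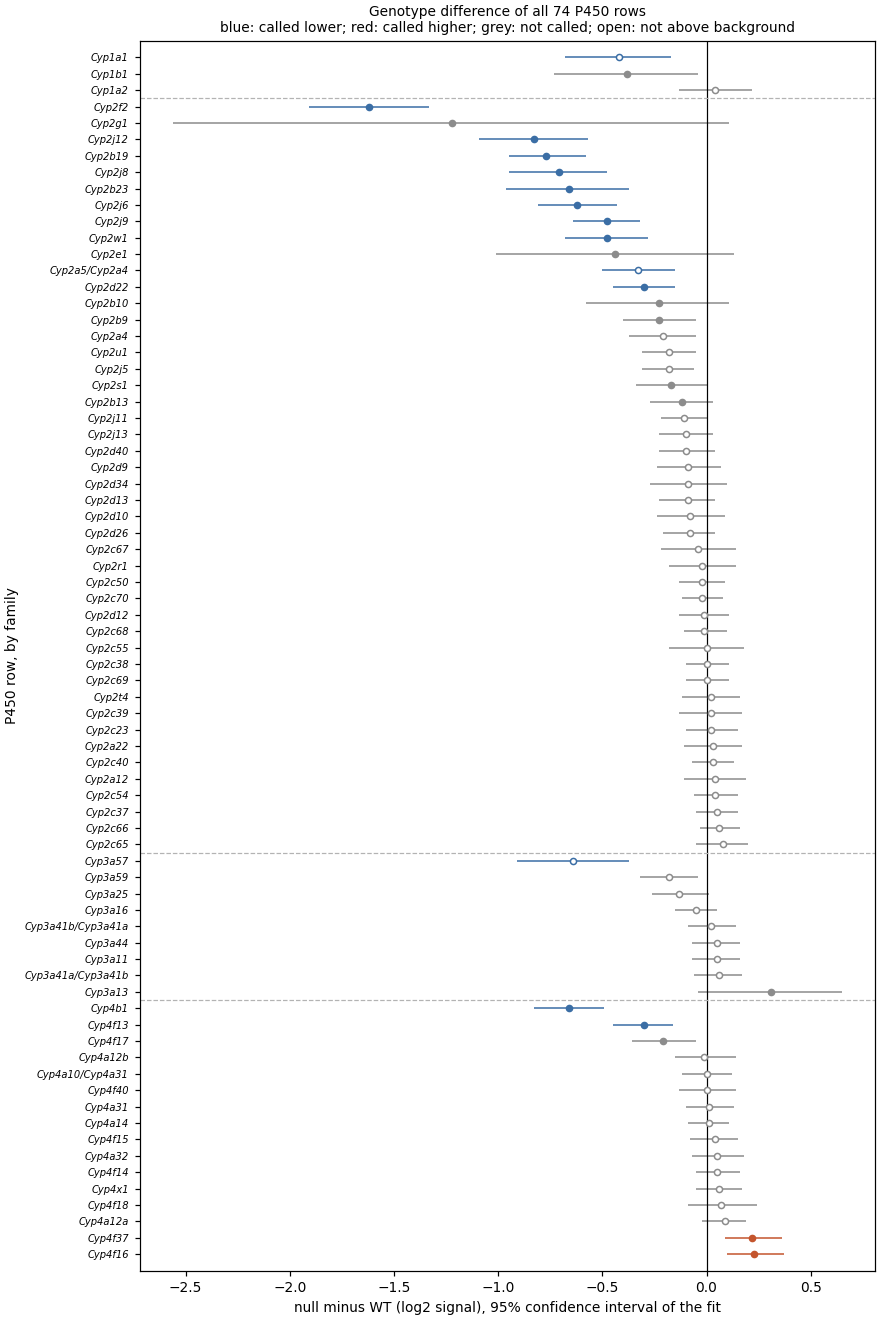
Difference between null and WT (x axis, log2 signal, null minus WT) of all 74 P450 rows (y axis, by family), with points for the fitted difference and lines for its 95% confidence interval, blue for rows called lower, red for rows called higher, grey for rows not called and open points for rows not above background in either genotype. The 16 called rows lie between -1.62 for Cyp2f2 and 0.23 for Cyp4f16, and most open points sit near 0.

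Many of these genes gave little signal in paw skin. Background was taken as the median of the negative control rows of an array, which was 4.26 to 4.46. In 22 of the 74 rows (29.7%) all 4 arrays of at least 1 genotype were above it, against 55.9% of all rows. None of the 14 Cyp2c rows and none of the 6 Cyp4a rows passed it, and only Cyp3a13 among the 9 Cyp3a rows did. These are the subfamilies best known from liver. Among the 74 rows, Cyp2c and Cyp4a held no called row, with differences of -0.04 to 0.08 and -0.01 to 0.09. This does not hold for all of Cyp4a, since Cyp4a29, left out by the naming rule and described below, was above background in both genotypes. It was called lower (difference -1.68, limma adjusted p = 0.000267). The size of a difference at background is not exact, since RMA compresses it, and 3 of the 16 called rows (Cyp3a57, Cyp2a5/Cyp2a4 and Cyp1a1) were not above background in either genotype.

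Cyp2f2, the P450 that activates naphthalene in mouse airway club cells, had the largest fall. It read 7.92 and 7.98 in the WT males, 8.04 and 8.34 in the WT females, 6.55 and 5.93 in the null males and 6.62 and 6.71 in the null females. Every null array was below every WT array, with 8.07 ± 0.18 in WT and 6.45 ± 0.35 in null. The difference was -1.62 (SE 0.13, limma adjusted p = 0.000153). Of 7 club cell markers, Scgb1a1, the secretoglobin that defines these cells, fell from 5.30 ± 0.14 to 4.74 ± 0.19 (difference -0.57, limma adjusted p = 0.00552), and the other 6 were not above background in either genotype. The mean level of the 7 markers was 3.66 to 3.83 on the WT arrays and 3.66 to 3.76 on the null arrays, which is under background.

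Cyp2b19, an arachidonic acid epoxygenase of the upper, differentiated epidermal layers, fell from 10.56 ± 0.11 to 9.79 ± 0.12 (difference -0.77, SE 0.08, limma adjusted p = 0.000764). Its WT arrays read 10.42, 10.69, 10.52 and 10.61, and its null arrays 9.93, 9.65, 9.78 and 9.80, in the order male 1 and 2, female 1 and 2. The groups did not overlap, and the difference was -0.76 in males and -0.77 in females. Its neighbour in the genome, Cyp2b23, also fell (5.52 ± 0.44 to 4.86 ± 0.11, difference -0.66, SE 0.13, limma adjusted p = 0.0126). The WT males, at 5.61 and 6.10, lay above the WT females, at 5.15 and 5.22, while the 4 null arrays spanned 4.73 to 5.0. All 5 Cyp2b rows were above background and had negative differences, but the remaining 3 were not called. Cyp2b10, the standard CAR target of mouse liver, differed by -0.23 (95% confidence interval -0.58 to 0.11, limma adjusted p = 0.393) with overlapping groups. Cyp2b9 differed by -0.23 too (limma adjusted p = 0.0934), and there the groups did not overlap.

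**Figure D2:**
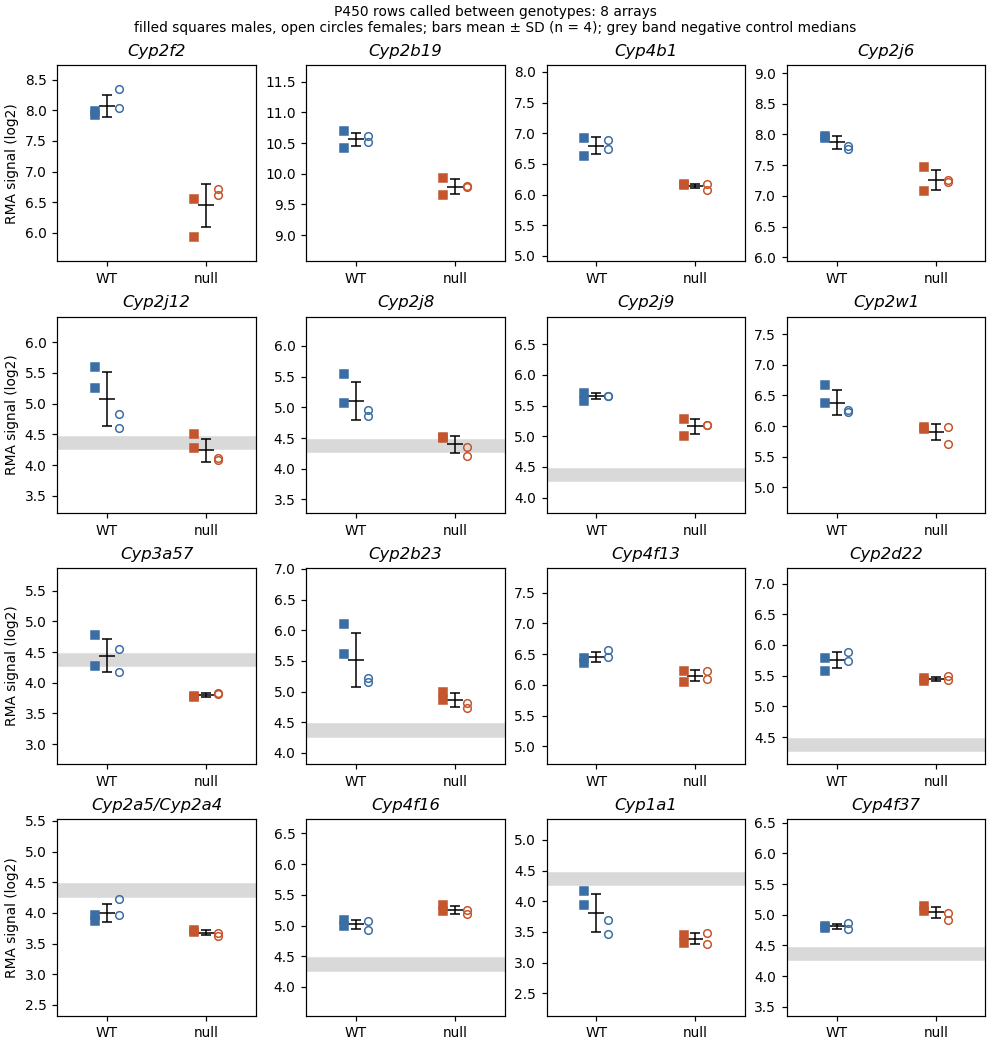
Signal (y axis, log2, each panel spanning the same height) of the 16 called P450 rows on the 8 arrays, WT in blue and null in red, males as filled squares and females as open circles, with bars for mean ± SD of 4 arrays and a grey band for the negative control medians where it falls in the panel. Cyp2f2 shows the widest gap between genotypes, Cyp4f16 and Cyp4f37 are the panels with null above WT, and Cyp1a1 is the one with overlapping groups.

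The Cyp2j genes, whose enzymes oxidise arachidonic acid and related fatty acids, lie in 1 cluster and had negative differences in all 7 rows, with a median of -0.48. In 4 of the 7 the fall was called, and in 6 the genotypes did not overlap. Over all rows, 5.74% were called lower and 8.6% did not overlap with WT higher. Cyp2j6 read 7.95 and 7.98 in WT males, 7.76 and 7.81 in WT females, 7.47 and 7.08 in null males and 7.26 and 7.22 in null females. Each null array was below each WT array, and the difference was -0.62 (SE 0.08, limma adjusted p = 0.00249). Cyp2j9, its neighbour, fell from 5.65 ± 0.05 to 5.16 ± 0.12 (difference -0.48, SE 0.07, limma adjusted p = 0.0036). Its WT arrays lay at 5.58 to 5.70 and its null arrays at 5.0 to 5.28, so the WT spread was narrow in both sexes.

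Cyp2j12 had the largest difference of the cluster (-0.83, SE 0.12, limma adjusted p = 0.00284). It read 5.25 and 5.59 in WT males, 4.60 and 4.83 in WT females, 4.50 and 4.27 in null males and 4.09 and 4.11 in null females. The genotypes did not overlap, although the lower WT female lay just above the higher null male, and the null arrays as a group were not above background. Cyp2j8 was alike, at 5.11 ± 0.31 in WT and 4.40 ± 0.14 in null (difference -0.71, SE 0.10, limma adjusted p = 0.00329), again above background only in WT. The 3 other rows were under background in both genotypes, with differences of -0.18 for Cyp2j5, -0.11 for Cyp2j11 and -0.10 for Cyp2j13 that were not called.

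Along the RefSeq order of the genes, the 4 clusters plotted held both called and uncalled rows. In the Cyp2j cluster the called genes Cyp2j8, Cyp2j6 and Cyp2j9 follow each other directly. In the cluster that runs from Cyp2s1 to Cyp2t4, the called genes Cyp2b23, Cyp2b19 and Cyp2f2 share the region with Cyp2a12, Cyp2a22 and Cyp2t4, whose differences were 0.04, 0.03 and 0.02. Near-identical neighbours can share probe signal, which the values used here cannot separate, and the part of such sharing in these runs was not tested. No P450 row had the same 8 values as another row, as 796 of all annotated rows did.

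**Figure D3:**
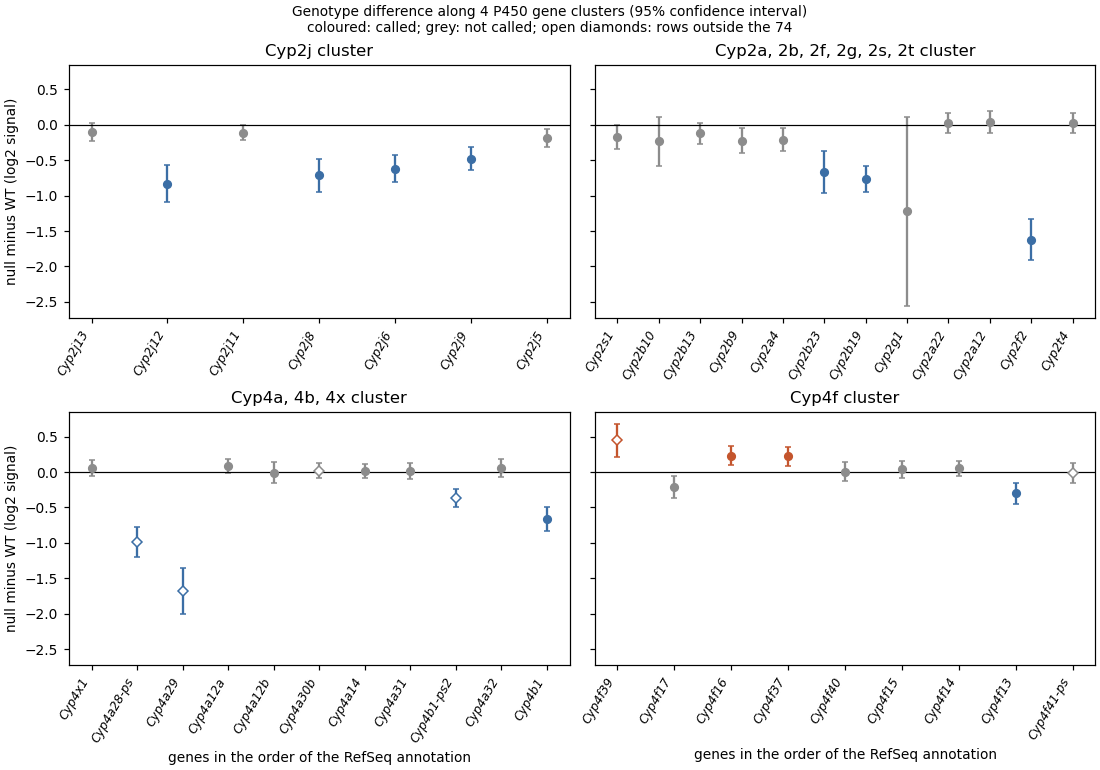
Difference between null and WT (y axis, log2 signal, bars for the 95% confidence interval) of rows naming 1 gene along 4 gene clusters in the order of the RefSeq annotation (x axis, not to scale), with blue for called lower, red for called higher, grey for not called and open diamonds for neighbouring rows left out by the naming rule. Runs of called genes are seen from Cyp2j8 to Cyp2j9 and from Cyp4f16 to Cyp4f37, with Cyp4f17 on the opposite side of 0 from its neighbour Cyp4f16.

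Cyp4b1, an enzyme known for activating plant furans and hydroxylating fatty acids, fell by a similar amount. It read 6.63 and 6.93 in WT males, 6.75 and 6.89 in WT females, 6.18 and 6.15 in null males and 6.08 and 6.17 in null females. The null arrays lay close together and all below WT (6.80 ± 0.14 to 6.14 ± 0.04, difference -0.66, SE 0.07, limma adjusted p = 0.00108). Cyp4a29, in the same gene cluster, is not among the 74 rows because its row also lists an older pseudogene name of the same gene, Cyp4a29-ps. Chosen here after its values were seen, that row fell from 6.63 ± 0.28 to 4.94 ± 0.35 (difference -1.68, SE 0.15, limma adjusted p = 0.000267), with no overlap. Counting it and Cyp4a30b by current symbol gave 15 rows called lower and 2 higher. Of the 12 rows near the rule but outside it, 4 were called lower, Cyp4a29 and those of the pseudogenes Cyp4a28-ps (-0.99), Cyp4b1-ps2 (-0.37) and Cyp2j7-ps (-0.19), and 1 higher, Cyp4f39.

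The 8 Cyp4f rows, of enzymes that hydroxylate long-chain fatty acids and leukotrienes, went both ways. Cyp4f16 rose from 5.02 ± 0.07 to 5.25 ± 0.06 (difference 0.23, SE 0.06, limma adjusted p = 0.0339). Its WT arrays read 5.0, 5.09, 5.07 and 4.93 and its null arrays 5.33, 5.24, 5.19 and 5.25. Cyp4f37 rose from 4.81 ± 0.04 to 5.04 ± 0.09 (difference 0.22, SE 0.06, limma adjusted p = 0.043), from 4.77 to 4.87 on the WT arrays to 4.92 to 5.14 on the null arrays. Both groups were separate in both rows, but the gaps were small. Cyp4f13 fell from 6.45 ± 0.08 to 6.15 ± 0.09 (difference -0.30, SE 0.06, limma adjusted p = 0.0161), and Cyp4f17, which lies next to Cyp4f16, differed by -0.21 (limma adjusted p = 0.0896). On the other side of Cyp4f17, Cyp4f39, a fatty acid hydroxylase of the skin barrier that the naming rule leaves out, rose from 9.13 ± 0.20 to 9.58 ± 0.11 (difference 0.45, limma adjusted p = 0.0233).

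Both rises rested on the model. With same-numbered mice as pairs, the replicate block gave limma adjusted p = 0.0541 for Cyp4f16 and 0.0665 for Cyp4f37. Both calls were kept only where the array left out was WT female 1, and without 1 of the other 7 the limma adjusted p reached 0.107 for Cyp4f16 and 0.122 for Cyp4f37. The block left 1 row called higher, Cyp3a13, in place of 2. The call of Cyp4f13 was lost without null male 2 or null female 1 (limma adjusted p of up to 0.0615).

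Cyp1a1, the textbook AHR target that oxidises polycyclic hydrocarbons, was under background on all arrays, at 3.94 and 4.17 in WT males, 3.46 and 3.69 in WT females, 3.32 and 3.45 in null males and 3.48 and 3.31 in null females. The WT males stood apart, and the WT females overlapped the null arrays (3.81 ± 0.31 to 3.39 ± 0.09, difference -0.42, SE 0.11, limma adjusted p = 0.042). The call was lost with the replicate block (limma adjusted p = 0.0561), without the sex term (0.0602) and with all non-control rows tested (0.0601). It was also lost without any 1 of 6 arrays (up to 0.122). These were WT males 1 and 2, null males 1 and 2, WT female 2 and null female 2. The difference was -0.67 in males only (limma adjusted p = 0.0282) and -0.18 in females only (0.521). Cyp1a2, its neighbour and the liver form, was also under background and differed by 0.04 (95% confidence interval -0.13 to 0.22, limma adjusted p = 0.792).

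Cyp1b1, the extrahepatic AHR target that oxidises oestrogens and hydrocarbons, was above background and was not called in the model with sex (5.36 ± 0.29 and 4.97 ± 0.24, difference -0.38, SE 0.15, limma adjusted p = 0.146). The WT arrays read 5.50, 4.92, 5.52 and 5.48 and the null arrays 5.25, 4.68, 5.07 and 4.91. WT male 2 lay among the null arrays, and within each numbered pair the null array was the lower. With the replicate block it was called (limma adjusted p = 0.0172), as it was without WT male 2 or without null male 1. With the muscle marker mean in the model the difference was 0.01. Cyp2s1, an AHR-inducible P450 of epithelia, differed by -0.17 (95% confidence interval -0.34 to -0.00, limma adjusted p = 0.189), with values of 6.97 to 7.28 in WT and 6.89 to 7.02 in null.

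Of the AHR list (receptor, partners and target genes outside the 74 rows), 7 of 10 genes were measured, of which 2 were called higher, 1 lower and 4 neither way, with a median difference of 0.01. The receptor Ahr stood at 7.85 ± 0.10 and 7.79 ± 0.08 (difference -0.06, limma adjusted p = 0.662). Its partner Arnt differed by -0.17 (limma adjusted p = 0.0821, and 0.0402 after quantile normalization), and its repressor Ahrr, under background, by 0.02. Among the targets, Tiparp, an AHR-induced ADP-ribosyltransferase, rose from 6.45 ± 0.17 to 7.38 ± 0.15 (difference 0.93, limma adjusted p = 0.00103). Nqo1, a quinone reductase also induced by NRF2, rose by 1.19 (limma adjusted p = 0.00144), and Aldh3a1, an aldehyde dehydrogenase, fell from 7.77 ± 0.10 to 6.96 ± 0.10 (difference -0.80, limma adjusted p = 0.000339). The measured targets went in both directions while the Cyp1 rows held 1 call, a fall, of 3.

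The remaining falls were in scattered members of Cyp2 and Cyp3. Cyp2w1, whose human counterpart is known from colon tumours, fell from 6.38 ± 0.20 to 5.90 ± 0.13 (difference -0.48, SE 0.09, limma adjusted p = 0.00928), with WT arrays at 6.23 to 6.67 and null arrays at 5.70 to 5.99. Cyp2d22, the only one of 8 Cyp2d rows above background, fell from 5.75 ± 0.13 to 5.45 ± 0.03 (difference -0.30, SE 0.07, limma adjusted p = 0.0195). All 8 Cyp2d differences were negative, but the other 7 ran only from -0.10 to -0.01 and none of them was called. Rows of similar neighbouring genes can share probe signal, so the 8 signs need not be independent. The call of Cyp2d22 was lost without WT male 1, null male 2, null female 1 or null female 2 (limma adjusted p of up to 0.0679).

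Near background, Cyp3a57 read 4.28, 4.77, 4.17 and 4.55 on the WT arrays and 3.77 to 3.84 on the null arrays (difference -0.64, SE 0.12, limma adjusted p = 0.00974). The row shared by Cyp2a5, the coumarin hydroxylase, and Cyp2a4 read 3.87 to 4.22 and 3.63 to 3.72 (difference -0.33, SE 0.08, limma adjusted p = 0.0256), and its call was lost without the same 4 arrays as that of Cyp2d22 (up to 0.081). In both rows the genotypes were separate, but the null arrays and some or all WT arrays lay under background. Cyp3a13, the 1 Cyp3a row above background, was not called (6.92 ± 0.28 and 7.23 ± 0.23, difference 0.31, SE 0.15, limma adjusted p = 0.255). Its WT arrays read 6.66, 7.20, 6.71 and 7.13 and its null arrays 7.05, 7.33, 7.03 and 7.51. Array 1 was below array 2 in each sex and genotype, and with the replicate block Cyp3a13 was called higher (limma adjusted p = 0.0197). With the muscle marker mean in the model the difference was -0.12. Cyp3a11, the PXR target of mouse liver, read 2.66 ± 0.08 and 2.71 ± 0.07, under background.

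Among the 58 rows not called, 49 were not above background in either genotype. The genotypes did not overlap in 7 of the 58, all named here after their values were seen. Over all rows, called or not, 18.7% did not overlap. WT was higher in Cyp2b9, Cyp2a4, Cyp2j5, Cyp2j11 and Cyp2u1, with differences of -0.23 to -0.11. Null was higher in Cyp4a12a and Cyp2c66, by 0.09 and 0.06. Cyp2e1, the ethanol-oxidising P450 and likewise picked after its values were seen, was above background and differed by -0.44 (SE 0.25, limma adjusted p = 0.324), with WT at 5.41 to 6.25 and null at 4.87 to 5.73.

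The comparison between the sexes asked whether P450 signal, or its difference between genotypes, depended on sex. No P450 row was called for female minus male, against 0.0153% of all rows, 5 in number, and 6 P450 rows had an unadjusted limma p under 0.05, against 5.07% of all rows. No P450 row was called for the difference between the null effects in females and males, against 0.00611% of all rows, 2 in number. Again 6 of the 74 had an unadjusted p under 0.05, against 4.2% of all rows. With 2 arrays per sex and genotype, a moderate difference may not be detectable.

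The widest difference between the sexes was that of Cyp2g1, a P450 known from the olfactory mucosa. It read 4.41 and 5.29 in WT males, 5.51 and 4.94 in null males, 7.57 and 8.36 in WT females and 4.79 and 5.50 in null females. The 2 WT females were high and the other 6 arrays lay between 4.41 and 5.51. The null effect was 0.37 in males and -2.82 in females, and their difference of -3.19 had an unadjusted limma p of 0.000396 and an adjusted p of 0.974. Over both sexes Cyp2g1 differed by -1.22 (SE 0.59, limma adjusted p = 0.23) and was not called, and without WT female 2 it differed by -0.74. In females alone it was called (limma adjusted p = 0.032). In its genome neighbour Cyp2b19 the effects of the sexes differed by -0.01.

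**Figure D4:**
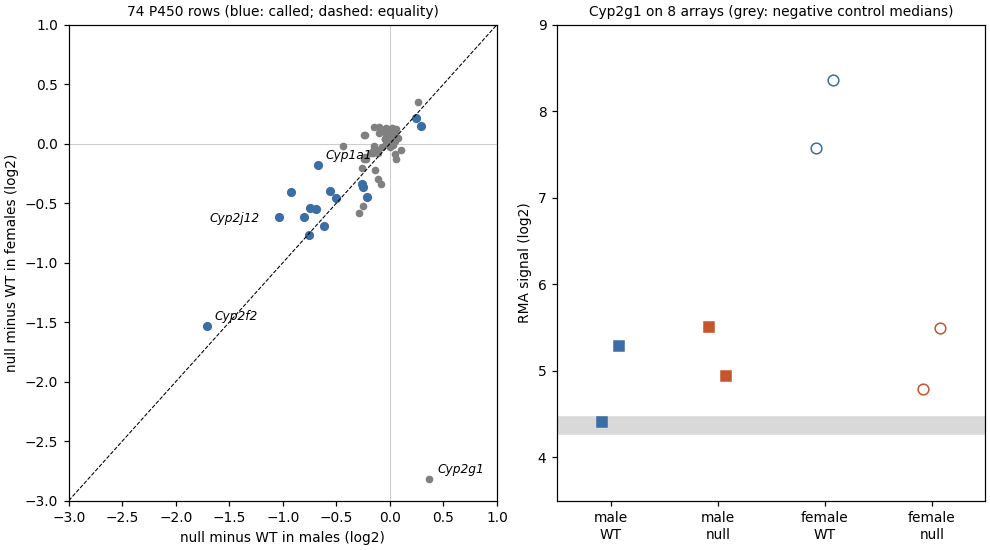
Left, difference between null and WT in males (x axis, log2) against that in females (y axis, log2) for the 74 P450 rows, blue for rows called over both sexes, with a dashed line of equality. Right, signal of Cyp2g1 (y axis, log2) on the 8 arrays by sex and genotype, with a grey band for the negative control medians. Cyp2g1 lies far below the line at 0.37 and -2.82, and only its WT females lie above 5.51.

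The genes that serve or join the P450 enzymes changed in both directions. Of a list of electron donor, haem synthesis and related genes, 13 of 15 were measured, with a median difference of 0.02. Of these, 3 were called higher, 4 lower and 6 neither way. The higher ones included Hmox1, an enzyme of haem breakdown, and the lower ones Pgrmc1, neither a donor nor a synthesis enzyme. Cpox, a haem synthesis enzyme, rose most (0.79, limma adjusted p = 0.00121), and Cyb5r3, the cytochrome b5 reductase, fell most (-0.43, limma adjusted p = 0.00146). Of a list of nuclear receptors and other factors of P450 induction, 14 of 16 were measured, with 1 called higher, 3 lower and 10 neither way and a median of -0.05. The 1 called higher, Nfe2l2, is not a nuclear receptor gene, so no nuclear receptor was called higher. Nfe2l2, which encodes NRF2, rose by 0.44 (limma adjusted p = 0.00306) and Nr3c1, the glucocorticoid receptor, fell by 0.34 (limma adjusted p = 0.0161, and 0.0607 at most without 1 array). The xenobiotic receptors PXR and CAR (Nr1i2 and Nr1i3) were not above background.

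Of 22 other P450 genes, from outside families 1 to 4 except for Cyp4f39, 21 were measured, with a median of -0.04. Of these, 3 were called higher, 4 lower and 14 neither way, and Cyp4f39, described above, is among the 3 higher. Cyp7b1, an oxysterol hydroxylase, rose from 5.07 ± 0.07 to 7.41 ± 0.22, and Cyp27a1, a sterol hydroxylase, fell from 6.40 ± 0.20 to 5.62 ± 0.20 (limma adjusted p = 0.00405). Of other oxidation and hydrolysis enzymes, 30 of 31 were measured, with 3 higher, 8 lower and 19 neither way and a median of -0.12. Ephx3, an epoxide hydrolase of the epidermis, rose by 1.46 (limma adjusted p = 0.000128) and Adh1, an alcohol dehydrogenase, fell by 1.09 (limma adjusted p = 0.000303). Of the conjugation enzymes, 35 of 40 were measured, with 6 higher, 6 lower and 23 neither way and a median of -0.01. The glutathione transferase Gsta4, which acts on lipid aldehydes, rose by 2.13 (limma adjusted p = 0.000305), and the methyltransferase Inmt fell by 1.45 (limma adjusted p = 0.00073).

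Among lists of markers of other cells, those of skeletal muscle and sebaceous gland held the largest shares of called genes. Over all rows 12.7% were called, 5.74% lower and 6.91% higher. The adipocyte, sweat gland and hepatocyte lists lay under that share. In whole skin, fewer cells of a type and less RNA per cell cannot be told apart. Of 15 skeletal muscle markers 12 were called lower, with a median difference of -0.88 and a mean level of 8.70 to 9.51 on WT arrays and 7.96 to 8.50 on null arrays. With that mean as a covariate, the 16 called P450 rows kept their sign and the median SE went from 0.083 to 0.157. In 12 rows the difference was as large or larger, with Cyp1a1 at -0.83, Cyp3a57 at -1.06, Cyp4f16 at 0.35 and Cyp4f37 at 0.38. It was smaller in the other 4, at -0.13 for Cyp2d22 (limma adjusted p = 0.714), -0.16 for Cyp4f13 (0.613), -0.37 for Cyp2j9 (0.241) and -0.59 for Cyp2j6 (0.131). The calls of Cyp2f2 (difference -1.66, limma adjusted p = 0.0236), Cyp4b1, Cyp2j12 and Cyp3a57 were kept, and the other 12 were lost, Cyp2b19 among them (difference -0.79, limma adjusted p = 0.0632). Sex and the muscle mean together explained 72.4% of the genotype term over the arrays, so the covariate left little of it to test. Among the genes named from the pathway lists, the covariate ended the calls of Nqo1 (0.64, limma adjusted p = 0.127), Tiparp (0.70, 0.115), Nfe2l2 (0.35, 0.198), Nr3c1 (-0.12, 0.739), Cpox (0.52, 0.129), Cyb5r3 (-0.41, 0.102), Cyp27a1 (-0.31, 0.331) and Inmt (-1.24, 0.0873). Those of Aldh3a1, Cyp7b1, Ephx3, Adh1 and Gsta4 were kept. Of the uncalled P450 rows named, Cyp2b10 stood at -0.85 (limma adjusted p = 0.0555) and Cyp2s1 at -0.44 (0.0772) with the covariate.

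Of 9 sebaceous gland markers 6 were called lower (median -0.51, mean level 7.62 to 8.21 in WT and 7.30 to 7.50 in null), led by Fa2h (-1.02) and Mc5r (-0.96). Of 9 fibroblast markers 3 were called lower (median -0.22, 8.10 to 8.56 and 7.77 to 8.32), and of 10 macrophage markers 2 were lower and 1 higher (median -0.40, 6.41 to 7.05 and 5.89 to 6.61). Of 10 keratinocyte markers 2 were lower, Krt9 (-2.46) and Krt2 (-0.60), with a median of -0.01 and a mean level of 11.14 to 11.36 and 10.95 to 11.08. Of 9 endothelial markers 2 were higher, of 9 adipocyte markers 1, Plin4, was lower, and none of 11 sweat gland markers was called. The part of these cells in the P450 differences was not tested. Of 9 hepatocyte markers none was called and 8, Alb among them, were not above background. Krt16 itself, whose probes need not lie in the part replaced, stood at 8.35 ± 1.07 in WT and 6.90 ± 0.07 in null (difference -1.45, SE 0.44, limma adjusted p = 0.0648). The groups did not overlap, but WT female 1, at 7.05, lay just above the highest null array, null female 2 at 6.99. The other WT arrays read 8.48 and 8.20 in males and 9.66 in female 2.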

How the data were processed

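RNA of 8 paw skin samples was hybridised to 1 Affymetrix array each. The deposited values are log2 signals per probe set made by the authors with RMA in Partek, per the submitters' processing notes; the sources used here give no version, setting, genome build or annotation. The values run from 1.36 to 13.6. Of 72688 rows, 6732 controls and rows without annotation were left out, and the 32750 annotated rows were tested with no filter on dim rows and no merging of rows.

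Each row was fitted with limma 3.58.1 (R 4.3.3) on genotype and sex, with lmFit and an intensity-trended eBayes, leaving 5 residual degrees of freedom. Effects by sex and their difference came from a fit of 4 group means (4 residual degrees of freedom). P-values were adjusted by Benjamini-Hochberg over all rows. The mice are separate animals. Arrays have no read depth, and their number limits the precision. The script was tested on simulated data. Python 3.11.15, pandas 2.3.3, numpy 2.4.6 and matplotlib 3.10.9 were used for tables and plots.

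After removal of group means, same-numbered WT and null arrays correlated across rows at 0.307 in males and 0.103 in females, both over the limit of 0.1, so their numbers were treated as pairs in an alternative fit with 4 blocks. The labels do not state what a number marks. Other alternatives changed the sex term, the rows tested, the normalization, the variance prior, array weights, a muscle covariate, each array left out and each sex alone.

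The members and gene lists were chosen with earlier results of these data known. The rows named are every called row, every Cyp1 row, the 12 rows with the highest mean, and the 3 uncalled rows above background with the smallest p, plus up to 2 of the largest rises and falls per gene list (the text gives the largest), Krt16, and Ahr, Arnt, Ahrr and Tiparp. Cyp3a11, Cyp2j5, Cyp2j11, Cyp2j13, Cyp2a12, Cyp2a22, Cyp2t4, Nr1i2, Nr1i3, Alb and those marked in the text fall outside it and were chosen after their values were seen, as was the count by current symbol. Hmox1 and Pgrmc1 were likewise named after their values were seen. The symbols are those of the array annotation. RefSeq tables of GRCm38.p6 gave gene order and promoters.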

Additional observations from a re-analysis of the deposited data

Results flagged for a closer look

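In groups of 4 arrays, the 24 named P450 rows and that of Cyp4a29 were checked for an array that stood apart from its genotype, by the gap to its nearest neighbour over the range of the group. In 50 groups 2 such arrays were found, and chance gives about 1 in 20. Cyp2w1 in null female 1 read 5.70, below the other null arrays at 5.95 to 5.99 (gap over range 0.886). Cyp1b1 in WT male 2 read 4.92, below the other WT arrays at 5.48 to 5.52 (gap over range 0.933). The cause was not tested in either.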

How the results depend on the processing

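The count of P450 rows called higher, 2 in the model with sex, was 1 with the replicate block and with median centring, and 0 over all non-control rows, with the muscle covariate, in males only and in females only. The count called lower, 14, was 4 with the muscle covariate, 8 in males only and 4 in females only, against 308, 1236 and 327 of all rows in place of 4144. In the other settings run the lower count stayed within 1.5 times. Leaving out each array gave 0 to 2 higher, 10 to 16 lower, 0 called by sex and 2071 to 4363 of all rows (2071 without null male 2, 2137 without null female 1, 2470 without WT male 1). The 10 rows that kept their call without any single array were Cyp2f2, Cyp2b19, Cyp4b1, Cyp2j6, Cyp2j8, Cyp2j9, Cyp2j12, Cyp2w1, Cyp3a57 and Cyp2b23. The replicate block lost the calls of Cyp1a1, Cyp4f16 and Cyp4f37, gained those of Cyp1b1 and Cyp3a13, and changed no other call among the 24 named rows. With the 90th percentile of the negative controls as background, 5 P450 rows were above it in place of 22, so signal over background limits most members. No named row that was called changed direction under any alternative. For fits on fewer arrays, fewer samples and residual degrees of freedom go with the loss; for the other changes the cause was not tested.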
